A study of Homo sapiens with 12 samples.

Results

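The replication-dependent histone genes of HEK293 cells, a human embryonic kidney line, are described here by class from ribosome footprints in monosome and polysome fractions. Members were the genes with a coding open reading frame (ORF) whose RefSeq symbol is H1-1 to H1-5 or begins with H2AC, H2BC, H3C or H4C and a number. They came to 56 of 6376 genes with a coding ORF: 3 of H1, 14 of H2A, 17 of H2B, 8 of H3, 13 of H4, and 1 locus of no single class, H2AC7/H3C4, whose ORF spans both genes. The rule matched 69 RefSeq symbols, of which 57 had a coding ORF. The monosome libraries held mRNAs with a single ribosome and the polysome libraries mRNAs with several. Each fraction was taken from cells starved of amino acids for 1 h (EBSS with MEM vitamins and 10% FBS), from cells starved of serum for 2 h, and from log phase cells in DMEM with 10% FBS, with 2 libraries in each of the 6 groups and 12 in all. All groups were the same line and all lysates held cycloheximide. The columns name the libraries A and B, and no label says that these were separate cultures, so the p-values measure only the spread between these libraries, which may be technical.

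Histones package DNA: pairs of H2A, H2B, H3 and H4 form the core of the nucleosome, and linker histone H1 binds the DNA that enters and leaves it. The replication-dependent genes lie in clusters, are short and lack introns, and are expressed mainly in S phase, when new DNA must be packaged. Their mRNAs end in a stem-loop in place of a poly(A) tail. The stem-loop is bound by SLBP, which acts in the processing, translation and timed decay of these mRNAs.

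Of the 56 members, 41 lie on chromosome 6, 13 on chromosome 1, and 1 each on chromosomes 12 (H4C16) and 21 (H2BC12L). The promoters below are shown because the shares of the core classes went together across libraries and that of H1 did not, and so that the classes can be compared outside the footprint data. A link between promoter sequence and these shares was not tested. They belong to the member with the most footprints in each class. They are RefSeq sequence in build GRCh38.p14, run 5′ to 3′ on the strand of the gene and end at the base before the start site. For H2AC20 the run is the whole stretch of 235 nt between its start and that of its divergent neighbour H2BC21. The others are 120 nt long. Capitals mark exact matches on either strand to 4 motifs known from histone promoters. These are the TATA box with the letters TATAAA, the CCAAT box named by its letters, the octamer ATTTGCAT, and the H1 box with the letters AAACACA. No printed match overlaps another.
H1-4, chr6:26156209-26156328, plus strand: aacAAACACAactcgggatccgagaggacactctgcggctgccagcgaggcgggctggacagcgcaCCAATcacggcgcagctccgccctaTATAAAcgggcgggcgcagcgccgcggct
H2AC20 and H2BC21, chr1:149886683-149886917, plus strand: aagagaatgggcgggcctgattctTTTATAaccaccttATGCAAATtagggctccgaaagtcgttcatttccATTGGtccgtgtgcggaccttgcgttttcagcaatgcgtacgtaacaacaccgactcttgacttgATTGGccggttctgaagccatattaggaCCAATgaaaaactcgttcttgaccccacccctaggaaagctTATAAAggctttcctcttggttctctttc
H2BC5, chr6:26158001-26158120, plus strand: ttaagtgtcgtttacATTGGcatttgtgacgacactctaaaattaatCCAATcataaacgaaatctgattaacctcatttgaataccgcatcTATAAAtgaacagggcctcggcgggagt
H3C2, chr6:26032100-26032219, minus strand: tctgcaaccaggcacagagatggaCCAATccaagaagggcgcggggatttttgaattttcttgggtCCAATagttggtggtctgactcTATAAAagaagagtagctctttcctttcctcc
H4C8, chr6:26285535-26285654, minus strand: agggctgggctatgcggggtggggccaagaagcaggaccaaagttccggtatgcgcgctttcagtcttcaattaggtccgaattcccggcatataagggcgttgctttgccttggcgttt

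A TATA box match began 28 nt before the start site of H2BC5, 29 nt before those of H1-4 and H2AC20, and 32 nt before that of H3C2. The stretch between H2AC20 and H2BC21 held 2 TATA box matches, 1 in each orientation, and an octamer. The H4C8 stretch held none of the 4 motifs. Over the 250 nt before the start site, 54 of the 57 RefSeq genes could be matched, and all genes with a promoter in the same table numbered 27305. TATAAA was in 68.5% of member promoters, with 5 of 11 in H4 and 8 of 9 in H3, against 11.3% of all promoters. CCAAT was in all 3 H1, 15 H2A, 16 H2B and 9 H3 promoters and in 2 of 11 H4 promoters, against 32.9% of all promoters. The octamer was in 10 of 15 H2A and 12 of 16 H2B promoters, which share stretches between divergent genes, against 1.68% of all promoters. It was not in these windows of H1, H3 and H4 genes. The H1 box was in 3 of 3 H1 promoters, in no window of a core histone gene and in 4.96% of all promoters.

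**Figure D1:**
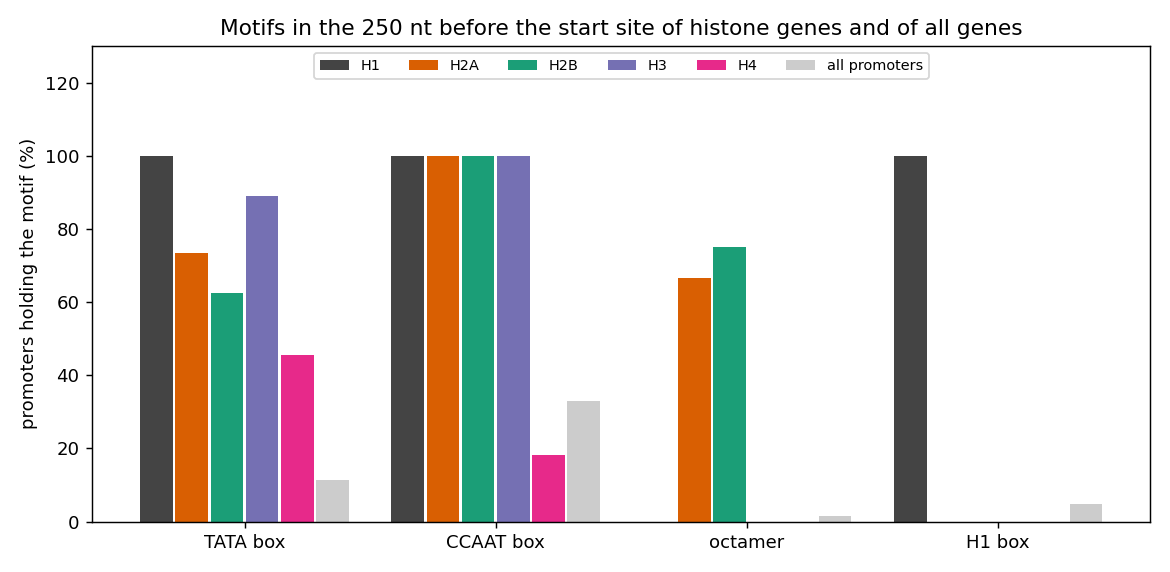
Percentage of promoters (y axis) whose 250 nt before the start site hold each of 4 motifs (x axis) on either strand, in the 5 histone classes and in all promoters of the RefSeq table. CCAAT was in 100% of H1, H2A, H2B and H3 promoters, 18.2% of H4 promoters and 32.9% of all promoters, and the octamer in 66.7% of H2A and 75.0% of H2B promoters.

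Coding footprints numbered 119947 to 346200 in the monosome libraries and 1493881 to 5313462 in the polysome libraries. They were 23.0% to 47.4% of all footprints in monosomes and 56.9% to 69.2% in polysomes. The cell line could be checked only in part: 5 of 8 marker genes of the line had a coding ORF, NEFM at 368 to 6750 and VIM at 46.1 to 655 CPM (footprints scaled to 1000000 coding footprints in a library). KRT8 was at 0 to 5.78 CPM. Of 10 markers of blood, liver, connective tissue, glia and muscle, 2 had a coding ORF, and neither exceeded 9.88 CPM in any library. The biological coefficient of variation, the relative spread between libraries, was 0.433, and 0.272 once a term for the letter (A or B) was in the model. Both fits are given where they differ, since deviations between B and A went together among the polysome groups (Pearson's r of 0.77 to 0.87). In pairs with a monosome group they did so only weakly (0.16 to 0.42). The letter term is 1 effect common to both fractions, and whether it holds in monosomes was not tested. A footprint count depends on how much of an mRNA there is and on how it is translated, and mRNA libraries were not analysed here. In a bulk sample fewer cells in S phase and less histone mRNA per cell cannot be told apart. Values are relative to the coding footprints of the same fraction, so a change of all genes together is not seen.

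Together the members took 13.1 and 12.6% of coding footprints in amino acid starved monosomes (A and B), 7.1 and 5.56% in serum starved monosomes, and 5.18 and 4.28% in log phase monosomes. In polysomes they took 9.04 and 6.2% in amino acid starvation, 15.8 and 7.88% in serum starvation, and 14.4 and 10.1% in log phase. Both monosome libraries of amino acid starvation were thus above all 4 others, and both polysome libraries of amino acid starvation were below both of log phase. The core classes carried this difference. The class sums are described without a test because the members were chosen with earlier results known.

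H4, which pairs with H3 in the nucleosome, took 3.31 and 2.99% of coding footprints in amino acid starved monosomes, against 1.09 and 0.699% in log phase monosomes. In polysomes H4 took 1.99 and 1.05% in amino acid starvation, against 4.32 and 1.97% in log phase. The monosome groups did not overlap, while polysome library A of amino acid starvation and polysome library B of log phase were almost level. The monosome over polysome ratio of the H4 share was 1.66 in A and 2.85 in B under amino acid starvation, and 0.253 and 0.355 in log phase.

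H3 showed a like pattern. It took 2.65 and 2.41% of coding footprints in amino acid starved monosomes, against 0.833 and 0.475% in log phase monosomes, and 1.67 and 0.875% in amino acid starved polysomes, against 3.07 and 1.68% in log phase polysomes. The groups did not overlap in either fraction, by a margin in polysomes that was small beside the gap between A and B. Its ratio was 1.59 and 2.75 in amino acid starvation and 0.271 and 0.283 in log phase.

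H2A and H2B, which form the dimers on both faces of the nucleosome, had values in the same order. H2A took 2.6 and 2.25% in amino acid starved monosomes, against 0.803 and 0.619% in log phase monosomes, and its ratio was 1.66 and 3.26 in amino acid starvation and 0.358 and 0.568 in log phase. H2B took 3.6 and 4.09% in amino acid starved monosomes, against 1.68 and 1.8% in log phase monosomes, and its ratio was 1.8 and 2.57 in amino acid starvation and 0.508 and 0.735 in log phase. The H2B ratio was 3.54-fold higher in A and 3.5-fold higher in B in amino acid starvation than in log phase, and the H4 ratio was 6.57-fold and 8.04-fold higher.

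H1 took 0.684 and 0.68% of coding footprints in amino acid starved monosomes, against 0.62 and 0.537% in log phase monosomes. In polysomes it took 1.62 and 1.92% in amino acid starvation, against 1.22 and 2.8% in log phase, and the log phase libraries lay on either side. Its ratio stayed below 1 in every condition: 0.422 and 0.355 in amino acid starvation, 0.51 and 0.263 in serum starvation, and 0.508 and 0.192 in log phase. This class sum is the value of 1 ORF, since H1-4 held 96.7% of the H1 footprints. Its ORF is of the Variant type and begins at ACG, and the ORF caller gave it a p of 0.9996. A high p was not particular to H1-4. In the same class the caller gave H1-3 a value higher still. It gave 0.946 for H2AC17, 0.960 for H2BC12L and 0.975 for H2BC7, while most members had lower values. Over ORFs of the CDS type, which leaves H1-1 alone, the log2 change of the ratio in amino acid starvation against log phase was 2.57, while it was 0.42 for the class sum.

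**Figure D2:**
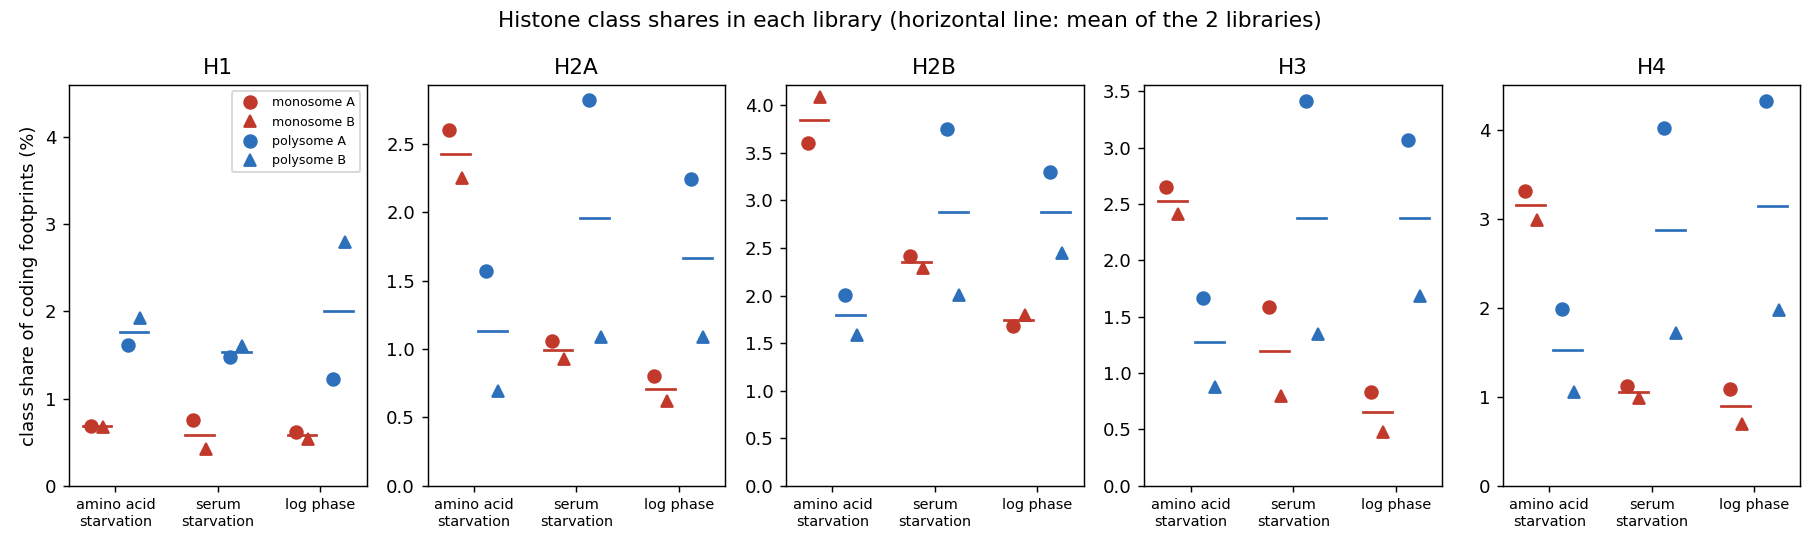
Share of coding footprints (y axis, %) of each histone class in each of the 12 libraries, by condition (x axis) and fraction. Circles are library A, triangles library B, and lines the mean of both; for H4 both amino acid starved monosome libraries (3.31 and 2.99%) lie above those of log phase (1.09 and 0.699%), while for H1 the monosome libraries of amino acid starvation (0.684 and 0.68%) and log phase (0.62 and 0.537%) lie close together and those of serum starvation (0.753 and 0.42%) on either side of them.

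Library A exceeded library B in every polysome pair of the core classes. The A over B ratio of the H4 share in polysomes was 1.9 in amino acid starvation, 2.33 in serum starvation and 2.19 in log phase, and in monosomes it was 1.11, 1.13 and 1.56. For H1 it ran the other way in log phase polysomes, where A was 0.435 of B. Across the 12 libraries the shares of the core classes correlated with one another with Pearson's r of 0.84 to 0.96, while H1 correlated with them with r of -0.07 to 0.34. These libraries share conditions, fractions and letters, so the values describe them and carry no p. The genes nearest to the H4 sum by this measure were DCTN3 (r = 0.949), ADI1 (0.944), ZNHIT1 (0.936), S100A11 (0.934) and NDUFAF3 (0.933). S100A11 was also nearest to H2A (0.945) and H3 (0.939), NDUFA2 to H2B (0.885) and PGAM1 to H1 (0.971).

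The ratio of monosome to polysome footprints was then tested for a change between amino acid starvation and log phase, gene by gene over all 4766 genes with enough footprints. Of these 54 were members, since H3C8 with 23 and H4C6 with 28 footprints in all libraries were left out. All 54 had a higher ratio in amino acid starvation, with a median log2 change of 2.95. Without a letter term edgeR called 0 genes of any kind, with 45 of 54 members and 191 of all genes at an unadjusted p under 0.05. DESeq2, also without the term, called 23 members higher, beside 9.37% of the 331 genes to which it gave an adjusted p. With the letter term 38 of 54 members had a higher ratio at an edgeR adjusted p under 0.05 and 0 a lower one, beside 1.13% of all genes higher. They were 38 of the 54 genes called higher in the whole table.

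By class the count with the letter term was 11 of 12 in H4, 6 of 7 in H3, 11 of 14 in H2A, 9 of 17 in H2B and 1 of 3 in H1. The class medians of the log2 change were 3.51 for H4, 3.08 for H3, 2.97 for H2A, 2.61 for H2B and 1.56 for H1, against 2.96 over the members and 0.01 over all genes. Differences between classes were not tested. The count of 38 rests on single libraries. The calls, of members and of all genes alike, were lost without either polysome library of amino acid starvation. They also fell without polysome library A or monosome library A of log phase, and without monosome library B of amino acid starvation. Whichever library was left out, the median of the members stayed between 2.46 and 3.32. Scaling by library size in place of TMM lowered the median of all genes by 0.34, and that of the members was then 2.53. Among 4712 other genes 2.4% had a log2 change above 2, against 45 of the 54 members. The ORFs of members are short. Of 2307 other tested genes with ORFs of 90 to 690 nt 14 were called higher, among 16 such calls outside the members. Among the 16 was H3-7, a histone gene whose symbol falls outside the rule, at 2.77 (edgeR adjusted p = 0.0137). The 2307 genes had a median log2 change of 0.31, and 3.51% of them were above 2. Members with shorter ORFs, such as H2AC11, lie outside this window. The part of ORF length in the result was not tested.

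**Figure D3:**
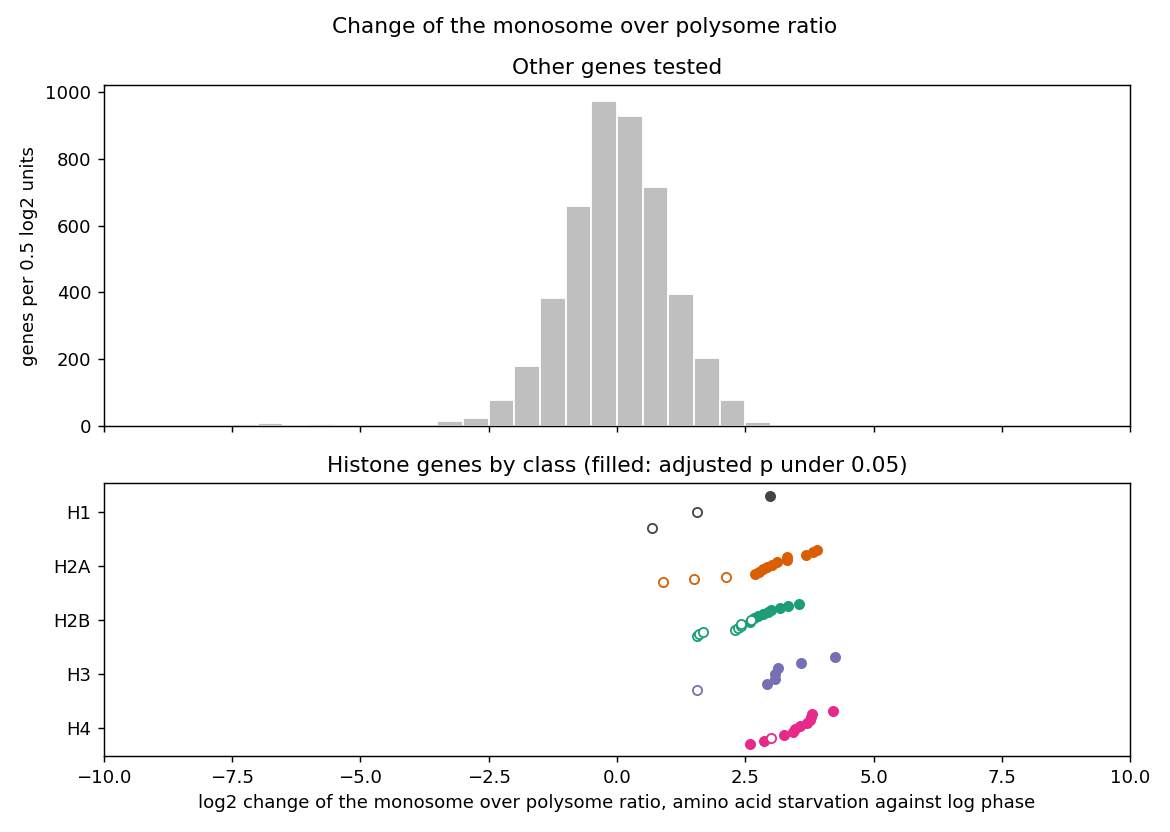
Log2 change of the ratio of monosome to polysome footprints, amino acid starvation against log phase (x axis), from the fit with the letter term: number of other genes per bin (top, y axis) and each of 53 histone genes by class (bottom). Filled points passed an adjusted p of 0.05; most histone genes lie above 2, where 2.4% of the other genes lie.

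Values by gene are from the fit with the letter term from here on, unless stated otherwise, and edgeR called none of the changes of the ratio without it. H3C2 had the highest value of any member, with 7390 and 7300 CPM in amino acid starved monosomes against 1280 and 682 in log phase monosomes, and 4590 and 3200 in amino acid starved polysomes against 9730 and 4930 in log phase polysomes. Neither fraction overlapped between conditions. The log2 change of its ratio was 4.24 ± 0.74 (SE, edgeR adjusted p = 0.00225 with the letter term). Its ORF (hg38 chr6:26031650-26031949, minus strand) is called in a truncated form of 300 nt that begins at AAG. All 8 H3 members were called in truncated forms.

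H4C8, the H4 gene with the most footprints, had 5780 and 5950 CPM in amino acid starved monosomes against 2270 and 1440 in log phase monosomes, and 5100 and 2220 in amino acid starved polysomes against 8450 and 3540 in log phase polysomes. The monosome groups did not overlap and the polysome groups did. The log2 change of its ratio was 2.86 ± 0.73 (SE, edgeR adjusted p = 0.042). H4C11 had 277 and 250 CPM in amino acid starved polysomes against 1000 and 1130 in log phase polysomes, and 2140 and 2480 in amino acid starved monosomes against 1030 and 797 in log phase monosomes. H4C11 fell in polysomes by 2.33 ± 0.44 on the log2 scale (SE, edgeR adjusted p = 0.0021), the largest such value among the members.

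H2AC20 had 3610 and 2170 CPM in amino acid starved monosomes against 858 and 601 in log phase monosomes, with no overlap, and 4270 and 1740 in amino acid starved polysomes against 6190 and 2170 in log phase polysomes, with overlap. The log2 change of its ratio was 2.77 ± 0.71 (SE, edgeR adjusted p = 0.042). H2AC14 reached 3.89, H2AC13 3.81 and H2AC17 3.67. H2AC8 was at 0.89 (adjusted p = 0.59) and H2AC4 at 1.49 (0.27), values well below the class median. H2AC18 and H2AC19 had identical values in all 12 libraries over ORFs of 12 nt, and H3C14 and H3C15 likewise over 300 nt: each pair is a single measurement that the counts of members include once for each copy.

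H2BC5, the H2B gene with the most footprints, had 12400 and 18200 CPM in amino acid starved monosomes against 6020 and 9230 in log phase monosomes, and 7360 and 7820 in amino acid starved polysomes against 7110 and 10600 in log phase polysomes. The polysome groups overlapped, and the log2 change of its ratio was 1.55 (adjusted p = 0.37). H2BC18 had 3120 and 2760 CPM in amino acid starved monosomes against 775 and 566 in log phase monosomes, and 1400 and 898 in amino acid starved polysomes against 3060 and 1630 in log phase polysomes. Its groups were apart in both fractions, and its ratio had the largest log2 change of the class, 3.54 ± 0.65 (SE, adjusted p = 0.0035). H2BC12L, the member on chromosome 21, was at 2.67 (adjusted p = 0.015), near the median of the class.

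The 3 H1 genes had unlike values, whose differences were not tested. H1-4 had 6420 and 6510 CPM in amino acid starved monosomes against 6120 and 5310 in log phase monosomes, and its log2 change of the ratio was 0.67 ± 0.76 (SE, adjusted p = 0.77). H1-1 had 150 and 123 CPM in amino acid starved monosomes against 24.2 and 17.3 in log phase monosomes, and its change was 2.99 ± 0.62 (SE, adjusted p = 0.01). These monosome values rest on 26 and 26 footprints in amino acid starvation and 7 and 6 in log phase. H1-3 lay between them at 1.56 (adjusted p = 0.23).

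H2A and H2B genes often lie head to head with a common promoter stretch. Of 11 such pairs with start sites under 500 nt apart, 9 had both genes among the members. The log2 changes of the ratio in the pair with the sequence shown above were 2.77 for H2AC20 and 2.36 for H2BC21. They were 3.03 for H2AC11 and 3.33 for H2BC11, and 2.69 for H2AC15 and 2.85 for H2BC15. For H2AC25 and H2BC26 they were 2.85 and 2.75, and for H2AC13 and H2BC13 3.81 and 3.17. H2AC17 and H2BC17 had 3.67 and 2.94, and H2AC6 and H2BC4 had 2.13 and 2.99. In 2 pairs the values lay furthest apart, 0.89 for H2AC8 and 2.42 for H2BC8, and 3.89 for H2AC14 and 1.68 for H2BC14. Likeness within pairs was not tested against that of unpaired genes.

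The 2 fractions can be read separately. In monosomes, amino acid starvation against log phase, edgeR called 0 genes without the letter term (30 members and 231 of all genes at an unadjusted p under 0.05), and DESeq2 called 16 members higher, beside 4.95% of the 424 genes to which it gave an adjusted p. With the letter term 22 of 54 members rose (edgeR adjusted p under 0.05), beside 0.608% of all genes. They were 22 of 29 genes that rose, and 18 genes fell, none of them a member. The median log2 change was 1.83 over the members and -0.02 over all genes. Of the H4 members 4 of 12 rose, of H3 2 of 7, of H2A 7 of 14, of H2B 7 of 17, and of H1 2 of 3. Members that rose included H3C2 (3.07), H2AC18 (2.95), H1-1 (2.77), H3C7 (2.59), H4C1 (2.43) and H2BC18 (2.19). The count of 22 rests on single libraries. It fell without either log phase monosome library, amino acid starved monosome B or either amino acid starved polysome library, and so did the calls over all genes. Both rose without either serum starved polysome library. Whichever library was left out, the median of the members stayed between 1.35 and 2.10.

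In polysomes, amino acid starvation against log phase, edgeR again called 0 genes without the letter term (16 members and 405 of all genes at an unadjusted p under 0.05), and DESeq2 called 6 members lower, beside 8.18% of the 978 genes to which it gave an adjusted p. With the letter term 16 of 54 members fell, beside 4.89% of all genes, and none rose. The median log2 change was -1.23 over the members and -0.08 over all genes. Of the H4 members 6 of 12 fell, of H2A 7 of 14, of H2B 3 of 17, and of H3 and H1 none. H4C11 (-2.33), H4C9 (-2.07), H4C12 (-2.03), H2AC13 (-1.82), H2BC21 (-1.80) and H2AC11 (-1.67) were among them. Of the H1 genes, H1-3 had 783 and 487 CPM in amino acid starved polysomes against 247 and 454 in log phase polysomes, and its log2 change was 0.56 (adjusted p = 0.36). The count of 16 rests on single libraries. It was lost without either amino acid starved polysome library or log phase polysome A, where nearly all calls over all genes were lost too. Both rose without either amino acid starved monosome library or either serum starved polysome library. Whichever library was left out, the median of the members stayed between -1.33 and -0.84.

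**Figure D4:**
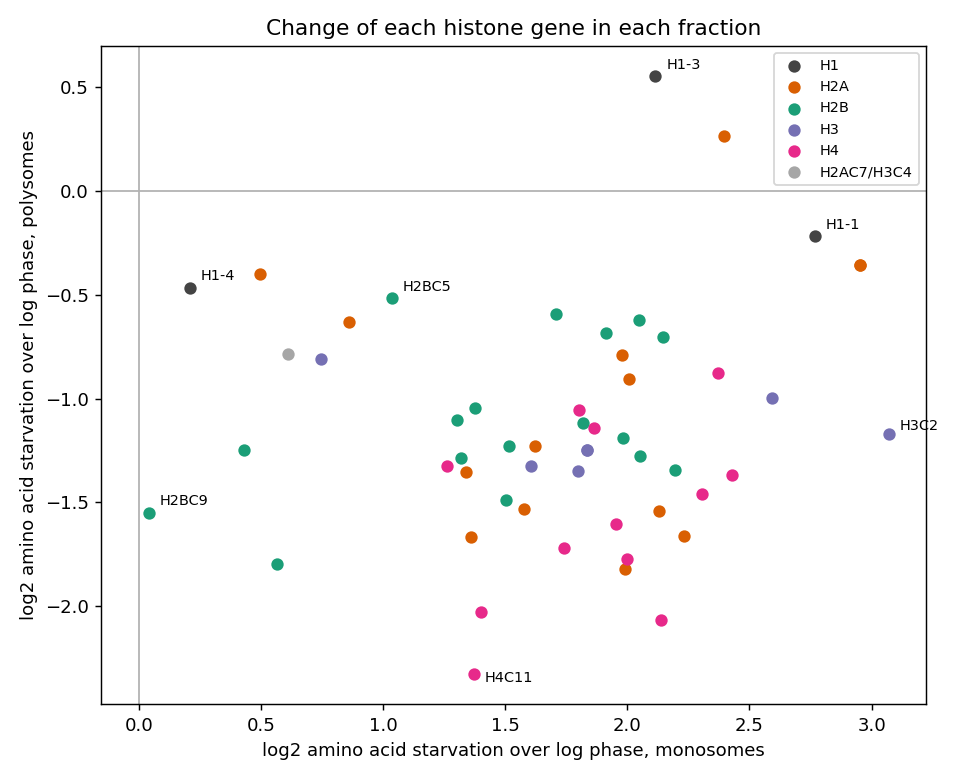
Log2 change of each of 54 histone genes in amino acid starvation against log phase, in monosomes (x axis) and in polysomes (y axis), from the fit with the letter term. Points to the right of 0 and below 0 were higher in starved monosomes and lower in starved polysomes; 52 of 54 points lie below 0, and the exceptions are H1-3 (0.56) and H2AC6 (0.27).

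Within each condition the fractions were compared by footprints scaled within each library, not by raw counts, since the polysome libraries were deeper. In amino acid starvation H4C8 had 998.2 and 1258.2 footprints in monosomes and 7620.3 and 5768.5 in polysomes before scaling. After scaling, 28 of 54 members were higher in amino acid starved monosomes than in polysomes with the letter term, beside 15.3% of all genes. Lower was 1 member (H1-3, at -1.30), beside 13.4%. Those higher were 8 of 12 H4, 4 of 7 H3, 8 of 14 H2A, 8 of 17 H2B and 0 of 3 H1 genes. Without the letter term 4 were higher, beside 5.33% of all genes: H4C11 (3.33), H4C12 (3.14), H2AC11 (3.06) and H2AC13 (2.65). With the term the count of 29 in both directions fell without amino acid starved monosome B and without either amino acid starved polysome library. The calls over all genes fell with it. The median of the members ran from 0.75 to 1.55 as single libraries were left out. Without the term the count of 4 was 0 to 2 when any starved or log phase monosome library or either amino acid starved polysome library was left out, 6 without either log phase polysome library, and 13 and 14 without serum starved polysome A and B.

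In serum starvation the direction was the opposite. After scaling, 19 of 54 members were lower in monosomes than in polysomes with the letter term, beside 13.9% of all genes, and none was higher. Without the letter term 3 were lower, beside 2.25%. With the term the count of 19 fell without either serum starved monosome library and without serum starved polysome A, and so did the calls over all genes. The median of the members ran from -1.38 to -0.35 as single libraries were left out. Without the term the count of 3 ranged from 0 to 6 as single libraries were left out, with 0 without log phase monosome A or either serum starved monosome library. In log phase 37 of 54 members were lower in monosomes with the letter term, beside 17.9% of all genes, and 11 without it, beside 4.7%. Those lower with the term were 9 of 12 H4, 6 of 7 H3, 9 of 14 H2A, 10 of 17 H2B and 3 of 3 H1 genes, with class medians from -1.39 for H2A to -2.83 for H1. The count of 37 and the calls over all genes fell without each log phase library and without either amino acid starved polysome library. For the members the fall was largest without log phase monosome A or log phase polysome A. The median of the members ran from -1.90 to -1.36 as single libraries were left out. The count of 11 was 0 without either log phase monosome library, 3 without log phase polysome A, and 18 to 24 without log phase polysome B or either serum starved polysome library.

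Members with little or no lean toward polysomes in log phase were H2AC11 at 0.02, H2BC21 at -0.20, H4C12 at -0.31, H2BC5 at -0.35 and H4C11 at -0.36, none of which passed the test. The ORFs of these genes measured 36 nt for H2AC11, 393 nt for H2BC21 and H2BC5, 288 nt for H4C12 and 321 nt for H4C11. Over the mean of the 3 conditions 15 members were lower in monosomes without the letter term, beside 21.7% of all genes, and 1 was higher (H4C11, 1.01), beside 17% of all genes. With the term 20 were lower, beside 30.2%, and 4 higher, beside 23.8%: H2AC11, H4C11, H4C12 and H2BC21. This mean joins amino acid starvation, where the member median was 1.30 with the term, with log phase, where it was -1.68.

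**Figure D5:**
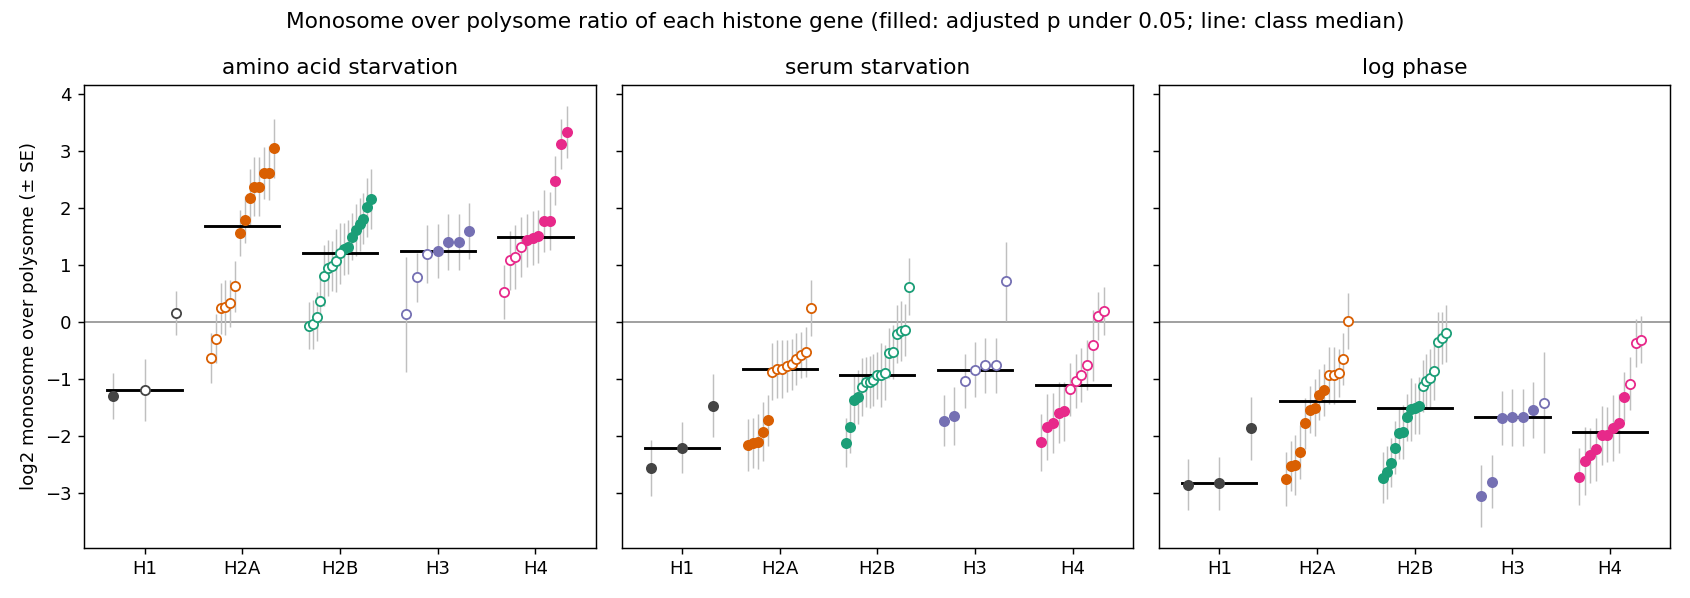
Log2 monosome over polysome ratio of each of 53 histone genes (y axis, ± SE) by class (x axis) in amino acid starvation, serum starvation and log phase, from the fit with the letter term. Filled points passed an adjusted p of 0.05 and lines are class medians, which lie above 0 for the core classes in amino acid starvation (1.20 for H2B to 1.68 for H2A) and below 0 in serum starvation and log phase.

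Serum starvation against log phase gave 0 called members in monosomes, in polysomes and in the change of the ratio, with either edgeR fit and with DESeq2. At an unadjusted p under 0.05 there were 3 members in monosomes, 1 in polysomes and 1 in the change of the ratio with the letter term, and 0 in each without it. The median log2 change of the members in the ratio was 0.60 with the term, with H3 highest at 0.92. The H3 share was 1.59 and 0.8% in serum starved monosomes against 0.833 and 0.475% in log phase monosomes, and the groups overlapped. The monosome over polysome ratio of the H3 share was 0.466 in A and 0.59 in B in serum starvation, against 0.271 and 0.283 in log phase.

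Levels were compared between genes per length, as CPM per kilobase of ORF, over members with ORFs of at least 150 nt. In amino acid starved monosomes the class medians were 13400 for H3, 11100 for H4, 3400 for H2A, 2770 for H2B and 378 for H1, against 3270, 3050, 924, 851 and 88.4 in log phase monosomes. The median of all tested genes was 86.4 in amino acid starved and 88.0 in log phase monosomes. In polysomes the medians were 6740 for H3, 5750 for H4, 1990 for H2A, 1850 for H2B and 1070 for H1 in amino acid starvation, against 12200, 12300, 3040, 3180 and 593 in log phase. H2BC5 was the highest H2B gene in every group, at 38900 in amino acid starved monosomes and 19400 in log phase monosomes. H4C2 was the highest H4 gene in both, at 30900 in amino acid starved monosomes and 7110 in log phase monosomes. Within H2B the level ran over orders of magnitude, with a lowest member at 98.6 in amino acid starved monosomes. The H3 and H4 medians were within the range of each other's members in every group, and they were furthest apart in serum starved monosomes, at 8190 for H3 and 3930 for H4.

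The footprints of a class were spread unevenly over its genes. H4C8, H4C5 and H4C2 held 20.7, 14.7 and 14.3% of the H4 footprints, and H3C2, H3C10 and H3C14 held 30.7, 19.8 and 15.8% of the H3 footprints. H2AC20, H2AC17 and H2AC11 held 24.1, 12.7 and 11.8% of the H2A footprints, and H2BC5, H2BC21 and H2BC4 held 32.5, 14.9 and 9.91% of the H2B footprints.

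The ORF calls set limits on these levels. Only 18 of the 56 members were called from an annotated start as CDS, 31 were truncated and 7 variants, and 20 began at AAG, 18 at ATG and 7 at CTG. Lengths were 12 to 393 nt in H2A, 279 to 408 nt in H2B, 108 to 330 nt in H3, 39 to 336 nt in H4 and 591 to 675 nt in H1. The copies of a class are nearly identical, and how footprints that match several copies were assigned is not given in the sources used here. Single copies are therefore uncertain, and so are class sums, since a footprint may count at more than 1 copy. The sums hold H3C14 and H3C15, and H2AC18 and H2AC19, once for each copy. With equal copies counted once, the log2 change of the class ratio in amino acid starvation was 2.92 for H3 and 2.29 for H2A. It was 2.85 and 2.33 with all copies.

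Other genes of the pathway were read from lists of symbols. A symbol that is not the RefSeq name of its gene counts as not tested, even where the gene was tested under another name. In histone mRNA processing and decay, 11 of 25 listed symbols were tested, and none changed its ratio in amino acid starvation against log phase with either fit. SLBP had 168 and 217 CPM in amino acid starved monosomes against 104 and 121 in log phase monosomes, and 484 and 1000 in amino acid starved polysomes against 168 and 511 in log phase polysomes. Its log2 change of the ratio was -0.14 (adjusted p = 0.955 with the letter term). SNRPD3, an Sm protein, rose in monosomes by 1.79 ± 0.45 on the log2 scale (SE, adjusted p = 0.0441). Its change of the ratio was 1.73 (adjusted p = 0.188).

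Among histone chaperones, import and assembly factors 19 of 30 were tested, and 1 rose in amino acid starved polysomes with the letter term, beside 5.18% of all genes, a share near that of the list. It was HAT1, the acetyltransferase of new H4, at 1.99 ± 0.42 (SE, adjusted p = 0.00402), with 325 and 758 CPM in amino acid starvation against 65.7 and 158 in log phase. NASP, a chaperone of H1, H3 and H4, was at 1.20 (adjusted p = 0.0616). The median log2 change of the list in polysomes was 0.76, and none of its genes changed the ratio.

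Among S phase and replication genes 20 of 31 were tested and 4 rose in amino acid starved polysomes with the letter term, beside 5.18% of all genes, with a list median of 1.01 and 19 of 20 values positive. Calls in this comparison rest on single libraries: over all genes and both directions they numbered 480, but 1 without amino acid starved polysome A, 7 without amino acid starved polysome B and 11 without log phase polysome A. They included MCM4 (2.04, adjusted p = 0.00325), MCM7 (1.70, 0.00851) and MCM3 (1.39, 0.0257), subunits of the replicative helicase. None fell, and none changed the ratio (list median -0.47). The histone genes had a median of -1.23 in the same polysome comparison, and the difference between the lists was not tested. Without the letter term 0 genes of any list passed in the comparisons of amino acid starvation with log phase.

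Of 14 symbols listed for histone variants with polyadenylated mRNAs 6 were tested. None of these 6 was called in any amino acid starvation against log phase comparison. H3-3A had 208 and 142 CPM in amino acid starved monosomes against 62.2 and 57.8 in log phase monosomes, and its log2 change of the ratio was 1.58 ± 0.58 (SE, adjusted p = 0.202). H3-3B was at 1.53 (adjusted p = 0.267). H2AZ2 had 480 and 435 CPM in amino acid starved monosomes against 820 and 575 in log phase monosomes. Over the mean of the 3 conditions it was higher in monosomes than in polysomes by 2.22 ± 0.25 (SE, adjusted p = 1.32e-08 with the letter term). In that comparison H2AZ2 was the only variant called higher, beside 23.8% of all genes. The other 5 were called lower, beside 30.2%, and the list median was -1.05. The list median of the change of the ratio was 0.76, against 2.96 for the members, and the difference was not tested.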

How the data were processed

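Ribosome footprints of 17 to 34 nt were sequenced by the authors, per the labels' protocols. The authors deposited 1 table of 149028 ORFs. Its values are expected counts per library, which the authors made with an ORF caller named in the title of the file. For each ORF the authors deposited a p-value from the caller, which served here for a stricter set with p under 1e-4. It is printed for H1-4 and for some members with a like value. Bowtie 1.0 and hg38 stand in the submitters' processing notes. The role of each is not given in the sources used here.

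Overlapping ORFs were resolved in favour of coding types (CDS, Trunc, Variant) and then of higher totals, which kept 7031 coding ORFs. Their expected counts were summed per gene and rounded. Genes were named by position from RefSeq (GRCh38.p14, 5981 named). Genes passing edgeR's filterByExpr (minimum count 10, minimum total 15) were fitted with edgeR 4.0.16 quasi-likelihood in R 4.3.3 over 6 groups after TMM scaling. Tests were two-sided, with Benjamini-Hochberg adjustment over 4766 genes in each of 10 contrasts. The library letter as a term (replicate block) was an alternative. B minus A deviations had r of 0.77 to 0.87 between polysome groups and of 0.16 to 0.42 in pairs with a monosome group. The values of the block are printed where they change a call. DESeq2 1.42.0, other scalings, filters and ORF sets, and leaving out each library were also run, and the models were tested on simulated data.

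The members, lists and tests were chosen with earlier results of these data known. Named members were the 3 with most footprints per class and those called in a contrast (up to 4 per class and direction). Of the lists, up to 3 genes with the smallest p and SLBP were named, and per class the nearest genes by Pearson's r. Other genes named were chosen after their values were seen. Precision is limited by depth and by 2 libraries per group.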

Additional observations from a re-analysis of the deposited data

Results flagged for a closer look

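The effect of amino acid starvation differed between the fractions. The log2 change of the monosome over polysome ratio of the class share, amino acid starvation against log phase, was 2.33 for H2A, 1.82 for H2B, 2.85 for H3 and 2.86 for H4 as the mean of A and B. Each was positive in both letters, with more footprints in starved monosomes and fewer in starved polysomes than in log phase, and the class sums were not tested. By gene the interaction was tested, and 38 of 54 histone genes passed in the fit with the replicate block, beside 1.13% of all genes higher. Without the block edgeR called 0 genes, and the count of 38 rests on single libraries.

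Footprints also lay at loci with no coding ORF, in ORFs of the internal type (iORF), which the comparisons do not use. They numbered 20000.7 at H1-2, 6893.3 at H2AC12, 284.9 at H3C1, 269.3 at H2BC3, 163.2 at H3C3 and 100.1 at H3C11 over the 12 libraries. The longest of these ORFs measured 174 nt, at H2AC12, and the most used ORF of H1-2 51 nt. The class sums therefore leave out H1-2.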

How the results depend on the processing

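The replicate block moved the count of called histone genes for monosome over polysome to 37 (log phase), 19 (serum starvation) and 29 (amino acid starvation), to 16 in polysomes and 22 in monosomes for amino acid starvation over log phase, and to 38 for the change of the ratio. DESeq2 gave 21, 8, 16, 6, 16 and 23 histone genes for the same comparisons, among 823, 624, 648, 90, 29 and 31 called genes in all. With ORFs of the CDS type alone 18 histone genes were tested. Of these 5 were called over the mean of the conditions and 7 for log phase, among 338 and 141 called genes in all. For serum starvation and for amino acid starvation 1 each was called, too few to be read as a result about histone genes. Library-size scaling gave 20 in log phase, among 573 called genes in all.

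The log2 change of the class ratio, amino acid starvation against log phase, was with CDS-type ORFs alone 2.57 for H1, 1.74 for H2A, 2.55 for H2B and 2.38 for H4 (H3 has none). With ORFs of a caller p under 1e-4 it was 2.43 for H1, 1.87 for H2A and 1.70 for H2B. With all footprints as denominator it was 1.98 for H2B and 3.10 for H4, with overlaps not resolved 1.96 for H2B, and with all ORF types inside the member genes, chosen after seeing the data, 2.02 for H2B and 3.08 for H4. The cause of these moves was not tested. Every core class stayed above 1.

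Calls over all genes also moved as single libraries were left out, so moves in the counts below are not particular to histone genes. For this change of the class ratio, leaving out 1 library at a time gave -0.30 to 0.90 for H1, 1.72 to 3.04 for H2A, 1.59 to 2.02 for H2B, 2.35 to 3.39 for H3 and 2.19 to 3.40 for H4. In edgeR without the replicate block it gave 11 to 20 called histone genes for the mean of the conditions, 0 to 24 for log phase, 0 to 6 for serum starvation, 0 to 14 for amino acid starvation and 0 to 1 for amino acid starvation over log phase in polysomes. In the other comparisons that fit gave 0 throughout. With the replicate block the ranges were 18 to 27 for the mean, 21 to 40, 7 to 24 and 6 to 36 for the 3 conditions in the same order, 0 to 31 in polysomes and 4 to 41 in monosomes for amino acid starvation over log phase, 0 to 45 for the change of its ratio, and 0 for serum starvation against log phase. For serum starvation against log phase the change of the H1 ratio ran from -0.31 to 0.89, below 0 without log phase polysome B and without serum starved monosome A (-0.07), and the median of the members from -0.24 (without log phase polysome A) to 1.57. Monosome libraries held 119947 to 346200 coding footprints, so weakly used members such as H1-1 rest on few footprints there.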
